A study of Mus musculus with 37 samples.

Results

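Left ventricular RNA of mice 1 day after cardiac arrest was compared with that of Naïve mice, in 4 Arrest and 5 Naïve libraries of a series of 37. All genes with a value of at least 0.5 FPKM (fragments counted on a gene, scaled to its length in kilobases and to library size) in at least 4 of these 9 libraries were taken, which gave 13288 of the 56748 genes in the deposited table. Both groups were C57BL/6J mice of 8 to 10 weeks, of both sexes, and all were anaesthetised with isoflurane. Arrest mice, whose treatment label is spelled "cardiac arresr 1d", were intubated and ventilated, given potassium chloride through the chest wall into the left ventricle and held in asystole for 8 min. They were then resuscitated with chest compressions and adrenaline (15 µg/mL, given into the ventricle), and only mice whose circulation returned were kept. Naïve mice, labelled "no intervention", were neither intubated nor injected and were killed after imaging, so intubation, ventilation, injection, adrenaline and a day of recovery all separate the groups along with the arrest, and their parts cannot be told apart. The other libraries came from Arrest mice at 0.5, 3 and 7 days and from Adr mice, labelled sham, which received adrenaline without arrest.

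During cardiac arrest the whole heart loses its blood supply, and on resuscitation it is reperfused while the body releases catecholamines, glucocorticoids and cytokines. Cardiomyocytes depend on mitochondrial oxidation for their energy and hold most of the ventricle's RNA, while fibroblasts, endothelial cells, mural cells and resident macrophages make up most of the other cells. Secreted acute phase proteins, metal-binding proteins and oxidant defence enzymes are common early responses of injured tissue, and MHC class II molecules mark the cells that present antigen to helper T cells.

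The Naïve libraries held 13.4 to 15.7 M fragments counted on genes (median 14 M) and the Arrest libraries 14 to 16.1 M (median 15 M). Genes of the mitochondrial genome took 25.2 to 30.9% and 21.7 to 27.3% of them. Ventricular markers stood at a summed 17246 to 20488 FPKM in Naïve and 20555 to 24420 FPKM in Arrest libraries, and all 8 lung and airway markers were below the filter. By Xist and Y-linked genes 3 Naïve and 2 Arrest libraries were female, and 2 of each group were male. Replicate 4 stood farthest from the others in both groups, and Naïve replicate 4 had 13475 genes above 0 against 16297 to 16925 in the other Naïve libraries. The description number that the labels give each sample, whose meaning is not stated, was 70 to 73 in Arrest replicates 1 to 3, 95 in Arrest replicate 4 and 116 to 127 in Naïve libraries, so whatever it stands for cannot be told apart from the arrest. In bulk tissue, fewer cells of a type and less RNA per cell cannot be told apart either. Values below are FPKM in the order of replicates 1 to 5 (Naïve) and 1 to 4 (Arrest), and fold changes are differences of mean log2(FPKM + 1), Arrest minus Naïve, with their standard error (SE), which understate the change of genes at low levels.

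Of the 13288 genes tested, 1050 (7.9%) differed, of which 600 (4.52%) were higher and 450 (3.39%) lower in Arrest, with limma and a Benjamini-Hochberg adjusted p of at most 0.05. The groups did not overlap for 527 of the higher and 418 of the lower genes, against 6.52% (all Arrest libraries above) and 5.83% (all below) of all genes tested. The median size of the change was 0.78 for higher and 0.69 for lower genes on the log2 scale. A change of at least 1 was reached by 175 higher and 86 lower genes, and of at least 2 by 17 and 2. Leaving out each of the 9 libraries in turn left 200 higher and 132 lower genes called every time, and the total fell furthest, to 380, without Arrest replicate 3 (422 without Arrest replicate 1, 521 without Arrest replicate 2, 584 without Naïve replicate 1 and 696 without Naïve replicate 5). Scaling each library by the sum of its nuclear gene values moved the median fold change of all genes from 0.03 to -0.13 and the counts to 319 higher and 1030 lower. Quantile normalization gave 428 higher and 609 lower. The median transcript length was 2342 bases for higher and 5794 bases for lower genes.

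The largest rise was that of Serpina3n, a serine protease inhibitor secreted in the acute phase response. Serpina3n was at 3.03, 1.49, 4.39, 18.9 and 2.45 FPKM in Naïve libraries and at 218, 164, 183 and 94.7 FPKM in Arrest libraries (log2 fold change 4.94 ± 0.51, adjusted p = 0.0012). All 4 Arrest libraries stood far above the Naïve libraries, of which replicate 4 was the highest. Lipocalin 2 (Lcn2), an iron-siderophore binding protein of epithelia, neutrophils and stressed myocytes, came next. Lcn2 was at 3.09, 1.08, 0.899, 3.42 and 0.227 FPKM in Naïve libraries and at 56.4, 18.9, 51.2 and 28.6 FPKM in Arrest libraries (log2 fold change 3.90 ± 0.42, adjusted p = 0.0012). Mt1 was at 132, 119.9, 116, 95.9 and 108 FPKM in Naïve libraries and at 1196, 735, 1556 and 350.3 FPKM in Arrest libraries (log2 fold change 2.86 ± 0.35, adjusted p = 0.002). Mt1 encodes a metallothionein, which binds zinc and copper, and its Arrest values ranged widely, with replicate 4 the lowest and still above every Naïve library. Mt1 was the only called gene of 7 tested for metallothioneins and zinc transport (14.3% higher against 4.52% of all genes). The median of that list was 0.05, and -0.04 when libraries were scaled by their nuclear sum. The other genes among the 12 largest rises were Mmp3, Timp1, Fkbp5, Lrg1, Hmox1, Junb, Clec4d, Prg4 and Anxa8, with Mmp3 the largest at 2.67 on the log2 scale. Prg4, which encodes the lubricant proteoglycan 4, separated the groups most evenly. Prg4 was at 2.14, 1.06, 1.44, 2.99 and 2.54 FPKM in Naïve libraries and at 11.3, 9.97, 13.3 and 9.58 FPKM in Arrest libraries (log2 fold change 2.02 ± 0.20, adjusted p = 0.0012). The 12 largest falls were those of Apln, Retnla, Tfrc, Lsmem1, H2-Aa, Cd83, Ighm, Lrrc15, Lmod3, Col15a1, Itgb6 and H2-Ab1, between -2.09 and -1.60. Lrrc15, a membrane protein of some fibroblasts, was the tightest of these. Lrrc15 was at 5.42, 4.03, 4.6, 6.76 and 4.24 FPKM in Naïve libraries and at 0.762, 0.719, 0.627 and 0.844 FPKM in Arrest libraries (log2 fold change -1.77 ± 0.16, adjusted p = 0.00082). Of these 24 genes, 21 kept their call without each library, and 3 did not. Junb lost its call without Arrest replicate 1, 2 or 3 (adjusted p 0.0572 to 0.0608). Clec4d lost its call without Arrest replicate 3 (adjusted p = 0.0608), and it passed the filter only with its Arrest values. Anxa8 lost its call without Naïve replicate 5 or Arrest replicate 1 (adjusted p 0.0501 to 0.075).

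**Figure D1:**
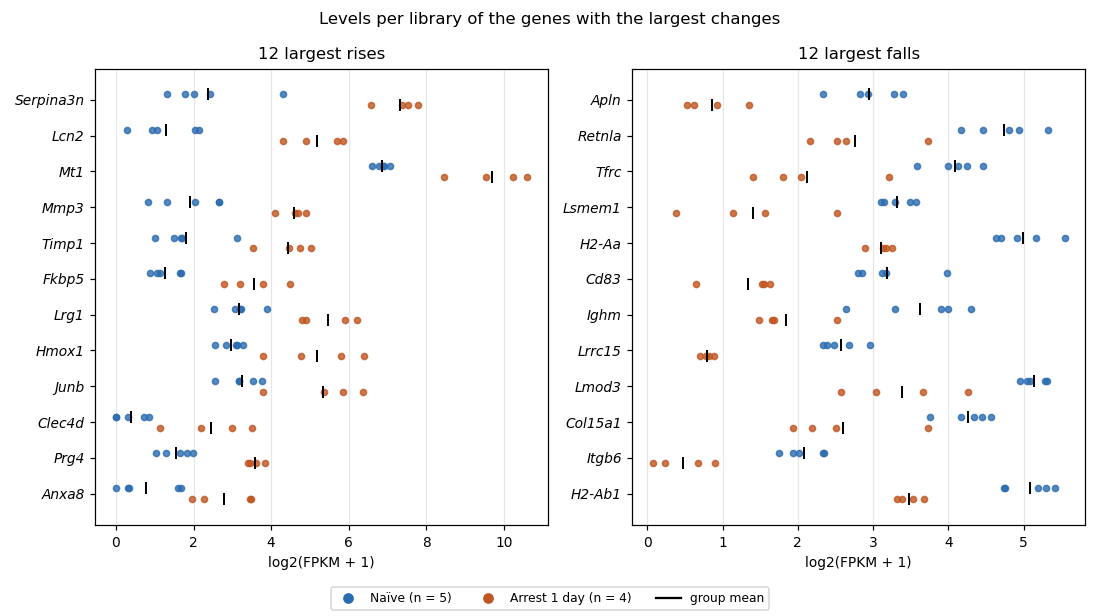
Levels of the 12 genes with the largest rise and the 12 with the largest fall, as log2(FPKM + 1) on the horizontal axis, with 1 point per library (blue, 5 Naïve; orange, 4 Arrest at 1 day) and a bar at each group mean. The groups do not overlap for any of the 24 genes, which the choice of genes required.

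The acute phase list stood highest among the functional lists. Of its 12 genes tested 8 were higher and 0 lower, and their median was 1.13 (1.05 with Chil3, listed at 0 in every Naïve library, set at the value that 3 fragments would give there), against 0.03 over all genes. The share higher was 66.7%, against 4.52% of all genes. Besides Serpina3n and Lcn2 they were Hp, Cp, Lbp, Lrg1, Itih4 and Chil3, and 5 of the 8 were called without any single library. Chil3 passed the filter only through its Arrest values. Itih4 also needed its Arrest values to pass, as fewer than 4 Naïve libraries reached 0.5 FPKM, so the calls of Chil3 and Itih4 lean on the filter. Lrg1, a secreted leucine-rich glycoprotein, showed the pattern of the group. Lrg1 was at 4.77, 8.18, 13.8, 8.25 and 7.39 FPKM in Naïve libraries and at 59.3, 28.6, 73.6 and 26.7 FPKM in Arrest libraries (log2 fold change 2.27 ± 0.33, adjusted p = 0.004). Arrest replicates 1 and 3 were the highest, as they were for Mt1 and Hmox1. Of 8 liver markers 7 were below the filter, and Ahsg (fetuin) was higher, with a log2 fold change of 1.46 ± 0.29. Ahsg lost its call without Arrest replicate 1 or 3 (adjusted p 0.0532 to 0.0537).

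Of 17 genes listed for IL-6 family and STAT3 signalling 5 were higher and 0 lower (29.4% higher against 4.52% of all genes, median 0.49). They were the oncostatin M receptor Osmr, Stat3 itself, its feedback inhibitor Socs3, the kinase Pim3 and the IL-4 receptor Il4ra, and Osmr, Socs3 and Il4ra were called without any single library. Socs3 was at 1.81, 2.24, 1.95, 4.55 and 2.31 FPKM in Naïve libraries and at 14, 6.98, 11.5 and 8.64 FPKM in Arrest libraries (log2 fold change 1.66 ± 0.24, adjusted p = 0.0036). Osmr was at 2.04, 2.43, 1.8, 1.45 and 3.25 FPKM in Naïve libraries and at 7.01, 6.02, 7.29 and 6.65 FPKM in Arrest libraries (log2 fold change 1.3 ± 0.17, adjusted p = 0.0024). The Arrest libraries of Osmr lay within a narrow band above all Naïve libraries. The ligand Il6 was listed at 0 in all Naïve libraries and at 0.160 to 0.597 FPKM in Arrest libraries, which put it below the filter. Among 20 chemokines and inflammatory cytokines 4 were higher (Ccl2, Ccl6, Cxcl1 and Cxcl14) and 0 lower, or 20% higher against 4.52% of all genes. Their list median was 0.12, which turned to -0.04 when libraries were scaled by their nuclear sum and to -0.06 with the length trend removed. Ccl6 was at 22.5, 21.3, 27.2, 31.5 and 17.1 FPKM in Naïve libraries and at 80.6, 50.04, 59.9 and 47.7 FPKM in Arrest libraries (log2 fold change 1.28 ± 0.19, adjusted p = 0.0043). Ccl6, a chemokine of myeloid cells, was called without any single library, while Cxcl1, which attracts neutrophils, was at 0 to 0.806 FPKM in Naïve and 1.29 to 5.21 FPKM in Arrest libraries. Cxcl1 lost its call without Arrest replicate 1 or 3 (adjusted p 0.0576 to 0.0682). It passed the filter only with its Arrest values, as fewer than 4 Naïve libraries reached 0.5 FPKM.

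Of 20 targets of the glucocorticoid receptor 7 were higher and 1 was lower (35% and 5%, against 4.52% and 3.39% of all genes, median 0.73). Fkbp5, which encodes an immunophilin that restrains the receptor, and Zbtb16, a zinc finger repressor, had the tightest increases. Fkbp5 was at 1.19, 1.1, 2.11, 2.18 and 0.824 FPKM in Naïve libraries and at 12.7, 8.13, 21.3 and 5.9 FPKM in Arrest libraries (log2 fold change 2.28 ± 0.32, adjusted p = 0.0032). Zbtb16 was at 3.07, 4.29, 2.82, 1.93 and 2.1 FPKM in Naïve libraries and at 11.7, 12.8, 17.9 and 10.2 FPKM in Arrest libraries (log2 fold change 1.89 ± 0.20, adjusted p = 0.0012). Every Arrest library exceeded every Naïve library for both. The receptor gene itself, Nr3c1, was the member that fell (log2 fold change -0.68 ± 0.11). The other higher members were Cdkn1a, Angptl4, Cebpd, Gadd45g and Sult1a1. Cdkn1a was at 14, 17.4, 17.8, 11.6 and 16.8 FPKM in Naïve libraries and at 62.1, 66.7, 111 and 16.6 FPKM in Arrest libraries (log2 fold change 1.72 ± 0.42, adjusted p = 0.033). Arrest replicate 4 stood among the Naïve libraries for Cdkn1a, a cell cycle inhibitor, as it did for Angptl4 and Gadd45g. Cdkn1a lost its call without Naïve replicate 1, 2, 3, 4 or 5 or Arrest replicate 1, 2 or 3 (adjusted p 0.0522 to 0.0944). Other well known targets did not pass the test, among them Tsc22d3 (0.16 ± 0.21) and Per1 (-0.08 ± 0.29). Immediate early genes, which are transcribed within minutes of a stimulus, held 2 higher (Junb and Myc) and 1 lower (Nr4a3) of 21 tested, with a median of 0.70. The shares were 9.52% and 4.76%, against 4.52% and 3.39% of all genes. Fos was at 4.05, 3.19, 2.88, 2.28 and 7.62 FPKM in Naïve libraries and at 43.7, 36.7, 37.9 and 1.55 FPKM in Arrest libraries (log2 fold change 2.10 ± 0.74, adjusted p = 0.11). Fos did not pass the test, with replicate 4 below all Naïve libraries and the other 3 Arrest libraries far above them.

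Of 18 genes of the NRF2 programme, which conjugate and reduce oxidants under the transcription factor NRF2, 10 were higher and 0 lower (55.6% higher against 4.52% of all genes), with a median of 0.69. They were haem oxygenase Hmox1, the quinone reductase Nqo1, the glutathione synthesis subunit Gclm, the glutathione transferases Gsta1, Gsta3 and Gstm1, and the thiol enzymes Txn1, Txnrd1, Srxn1 and Prdx1. Hmox1 was at 6.17, 4.82, 7.69, 7.48 and 8.66 FPKM in Naïve libraries and at 54.8, 26.3, 83.3 and 12.9 FPKM in Arrest libraries (log2 fold change 2.22 ± 0.43, adjusted p = 0.013). Srxn1 was at 8.36, 6.76, 8.88, 3.57 and 8.28 FPKM in Naïve libraries and at 33.4, 16.6, 41.9 and 16.4 FPKM in Arrest libraries (log2 fold change 1.72 ± 0.31, adjusted p = 0.01). Gsta3 was at 1.79, 3.49, 2.65, 3.84 and 3.92 FPKM in Naïve libraries and at 14.6, 7.83, 9.16 and 8.78 FPKM in Arrest libraries (log2 fold change 1.42 ± 0.22, adjusted p = 0.0044). All Arrest libraries exceeded all Naïve libraries for these 3 genes, which were called without any single library. Gclm had 3 Arrest libraries at 15.3 to 21.3 FPKM, but replicate 4 was at 4.63 FPKM, inside the Naïve range of 3.39 to 4.92. Nfe2l2, which encodes NRF2, stood at 0.01 ± 0.13 and its inhibitor Keap1 at 0.24 ± 0.13, neither past the test. The core of the antioxidant response element, the letters TGACNNNGC read on both strands, is shown in capitals in the 150 bases before the start of Gclm (chr3:122245407-122245556, plus strand), Gsta3 (chr1:21240435-21240584, plus strand) and Prdx1 (chr4:116685449-116685598, plus strand), from RefSeq's promoter windows on GRCm38.p6, to show where this motif sits in 3 genes that rose.
Gclm: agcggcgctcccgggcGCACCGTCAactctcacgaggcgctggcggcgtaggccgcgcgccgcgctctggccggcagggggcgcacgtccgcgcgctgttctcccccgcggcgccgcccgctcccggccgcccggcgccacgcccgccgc
Gsta3: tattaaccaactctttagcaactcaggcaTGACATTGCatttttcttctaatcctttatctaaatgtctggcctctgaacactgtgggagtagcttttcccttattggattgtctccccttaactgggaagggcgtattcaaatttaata
Prdx1: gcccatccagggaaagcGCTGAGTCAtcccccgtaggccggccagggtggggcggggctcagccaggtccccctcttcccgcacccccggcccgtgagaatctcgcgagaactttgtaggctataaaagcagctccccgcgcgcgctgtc
The matches lie 134, 121 and 133 bases before the start, that of Prdx1 includes the letters of an AP-1 site (TGAGTCA), and 12.3% of 22862 promoter windows (250 bases before to 50 after the start) hold the motif. The motif was chosen after the values had been seen, the promoter table covered 57.5% of the genes tested, too few to compare called with other genes, and a match is a description of letters and not of binding.

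Iron genes changed on both sides of the pathway. Of 14 tested 6 were higher (Hmox1, which releases iron from haem, the ferritin chains Fth1 and Ftl1, Lcn2, the ferroxidase Cp and Hfe) and 1 was lower, the transferrin receptor Tfrc, which imports iron. The shares were 42.9% and 7.14%, against 4.52% and 3.39% of all genes. Tfrc was at 16.5, 11, 18, 21 and 15 FPKM in Naïve libraries and at 3.13, 2.48, 1.65 and 8.29 FPKM in Arrest libraries (log2 fold change -1.97 ± 0.32, adjusted p = 0.0061). Arrest replicate 4 was the highest of its group and still below the lowest Naïve library. Both ferritin chains had Arrest libraries above all Naïve ones (Ftl1 0.79 ± 0.19, Fth1 0.53 ± 0.12). Ftl1 lost its call without Naïve replicate 1, 2, 3 or 5 or Arrest replicate 1 or 3 (adjusted p 0.0527 to 0.0941). Fth1 lost its call without Naïve replicate 1, 2 or 5 or Arrest replicate 1 or 3 (adjusted p 0.0589 to 0.0847). Hamp and Hamp2, the hepcidin genes, were listed at 0 in all 9 libraries.

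Of 7 MHC class II presentation genes tested 5 were lower and 1 (the protease Ctss) was higher, with a median of -1.41, while 3.39% of all genes were lower. The 5 were the alpha and beta chains H2-Aa, H2-Ab1 and H2-Eb1, the peptide editor H2-DMb1 and the invariant chain Cd74. H2-Aa was at 25, 45.6, 23.7, 35 and 29.2 FPKM in Naïve libraries and at 7.74, 7.99, 6.42 and 8.55 FPKM in Arrest libraries (log2 fold change -1.88 ± 0.18, adjusted p = 0.0012). H2-Eb1 was at 44, 61.2, 36.4, 76.2 and 49.6 FPKM in Naïve libraries and at 16.5, 19.4, 12.7 and 18 FPKM in Arrest libraries (log2 fold change -1.60 ± 0.20, adjusted p = 0.0023). Cd74 was at 138, 176, 128, 149.7 and 134 FPKM in Naïve libraries and at 57.5, 57.1, 53.7 and 47.2 FPKM in Arrest libraries (log2 fold change -1.41 ± 0.11, adjusted p = 0.00056). No Arrest library reached the lowest Naïve library for any of these 3 genes, and all but H2-DMb1 kept the call without each library. H2-DMb1 lost its call without Arrest replicate 1 or 3 (adjusted p 0.0542 to 0.0608). The summed level of the list was 236 to 356 FPKM in Naïve and 112 to 125 FPKM in Arrest libraries. Class II genes share a promoter block that ends in a Y box, an inverted CCAAT box, and the letters ATTGG, read on both strands, are in capitals in the 150 bases before the start of H2-Aa (chr17:34287824-34287973, minus strand), H2-Eb1 (chr17:34305717-34305866, plus strand) and H2-DMb1 (chr17:34153041-34153190, plus strand), from the same RefSeq windows on GRCm38.p6.
H2-Aa: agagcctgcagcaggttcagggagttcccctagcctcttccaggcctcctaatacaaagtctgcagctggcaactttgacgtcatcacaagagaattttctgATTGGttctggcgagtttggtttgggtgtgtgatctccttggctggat
H2-Eb1: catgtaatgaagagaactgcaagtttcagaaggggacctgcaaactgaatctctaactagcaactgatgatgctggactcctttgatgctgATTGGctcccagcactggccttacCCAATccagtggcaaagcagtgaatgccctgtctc
H2-DMb1: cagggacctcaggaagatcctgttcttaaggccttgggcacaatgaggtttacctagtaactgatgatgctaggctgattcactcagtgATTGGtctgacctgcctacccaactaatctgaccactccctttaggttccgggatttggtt
The letters lie 48, 59 and 61 bases before the start, H2-Eb1 has a second match 35 bases before it, and 38.2% of 22862 windows hold them, so a match alone is common. This motif too was chosen after the values had been seen. Cd83, a surface protein that stabilises class II on dendritic cells and B cells, fell as well. Cd83 was at 8.03, 6.19, 7.69, 5.95 and 14.8 FPKM in Naïve libraries and at 1.87, 1.94, 0.572 and 2.09 FPKM in Arrest libraries (log2 fold change -1.85 ± 0.27, adjusted p = 0.0042).

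Interferon response genes gave 0 higher and 3 lower (Bst2, Iigp1 and Tnfsf10) of 31 tested, with a median of -0.19. The share lower was 9.68%, against 3.39% of all genes. Bst2 was at 32.3, 52.6, 29.7, 46.8 and 34.6 FPKM in Naïve libraries and at 19.6, 18, 13 and 28.6 FPKM in Arrest libraries (log2 fold change -0.97 ± 0.23, adjusted p = 0.027). Bst2 lost its call without Naïve replicate 2 or Arrest replicate 1, 2 or 3 (adjusted p 0.0549 to 0.0849). Ifit3 stood at 0.01 ± 0.47 with 2.57 to 4.99 FPKM in 3 Arrest libraries and 22.8 FPKM in replicate 4, above the Naïve range of 4.80 to 10.5. The immunoproteasome subunit Psmb9, an interferon target, was lower (log2 fold change -0.93 ± 0.19), while 16 of the other 40 proteasome genes tested were higher. Psmb9 lost its call without Arrest replicate 1 or 3 (adjusted p 0.0576 to 0.0643).

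Nuclear genes of the respiratory chain rose in large number and by small amounts. Of 36 complex I subunits 17 were higher and 0 lower (47.2%), and of 39 subunits of complexes II to V 23 were higher and 0 lower (59.0%), against 4.52% of all genes. Their medians were 0.53 and 0.52. Ndufa7 was at 96.6, 102, 113, 106 and 104 FPKM in Naïve libraries and at 205, 178, 221 and 193 FPKM in Arrest libraries (log2 fold change 0.92 ± 0.09, adjusted p = 0.0012). Cox7b was at 499, 576, 608, 617 and 559.6 FPKM in Naïve libraries and at 1129, 974, 1243 and 1005 FPKM in Arrest libraries (log2 fold change 0.92 ± 0.10, adjusted p = 0.0014). Ndufa7 is a complex I subunit and Cox7b one of cytochrome c oxidase, and the lowest Arrest library stood far above the highest Naïve library for both. Uqcr10 was at 589, 645, 698, 740.0 and 654 FPKM in Naïve libraries and at 1185, 1189, 1424 and 1126 FPKM in Arrest libraries (log2 fold change 0.88 ± 0.10, adjusted p = 0.0016). Without any single library 7 of the 17 and 12 of the 23 were called. Most of these genes are short, and with the trend with gene length removed from each library 8 and 14 stayed higher and the medians were 0.34 and 0.36, while quantile normalization brought the medians to 0.23 and 0.15. The 15 genes of the mitochondrial genome did not move with them (median -0.03). Of these 1 was higher and 1 lower, or 6.67% each way against 4.52% and 3.39% of all genes. mt-Nd5 was at 15330.0, 11158, 13245, 11964 and 17697 FPKM in Naïve libraries and at 9109, 7890.2, 9747 and 6981 FPKM in Arrest libraries (log2 fold change -0.71 ± 0.16, adjusted p = 0.025). mt-Nd5 lost its call without Naïve replicate 1 or Arrest replicate 1, 2 or 4 (adjusted p 0.0511 to 0.0712). The higher gene, mt-Atp6, overlaps mt-Atp8, and reads of the overlap may be counted for either.

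Proteasome genes gave 16 higher and 1 lower of 41 (median 0.34), of which 8 and 1 remained with the length trend removed. The shares were 39.0% and 2.44%, against 4.52% and 3.39% of all genes. Psma6 was at 66.4, 62, 81.5, 69.8 and 76.9 FPKM in Naïve libraries and at 142, 121, 158 and 106 FPKM in Arrest libraries (log2 fold change 0.86 ± 0.13, adjusted p = 0.0044). Psmb5 was at 57.2, 64.1, 87.1, 64 and 54.3 FPKM in Naïve libraries and at 119, 99.8, 111 and 99.3 FPKM in Arrest libraries (log2 fold change 0.72 ± 0.14, adjusted p = 0.012). Psma6 is a structural and Psmb5 a catalytic subunit of the core particle, and the groups were apart for both. Mitochondrial ribosomal proteins gave 9 higher and 0 lower of 76 (11.8% higher against 4.52% of all genes, median 0.27), and Mrpl41 was the clearest of them. Mrpl41 was at 36.9, 44.2, 52.3, 54.2 and 36 FPKM in Naïve libraries and at 69.97, 82.4, 94 and 99.4 FPKM in Arrest libraries (log2 fold change 0.94 ± 0.15, adjusted p = 0.0062). Cytosolic ribosomal proteins gave 3 higher (Rplp0, Rpl27 and Rps20) and 0 lower of 76, or 3.95%, below the share of all genes, and their median of 0.23 became 0.09 with the length trend removed and -0.04 with quantile normalization.

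Fuel genes were split. Fatty acid uptake and oxidation gave 6 higher and 0 lower of 30 tested (20% higher against 4.52% of all genes, median 0.29). Pnpla2 was at 90.7, 90.4, 116, 92.7 and 94.8 FPKM in Naïve libraries and at 233, 237, 252 and 130.2 FPKM in Arrest libraries (log2 fold change 1.09 ± 0.18, adjusted p = 0.0072). Pnpla2, the lipase that opens triglyceride stores, had its lowest Arrest value in replicate 4, above every Naïve library. The others were the fatty acid transporter Cd36, the carnitine carrier Slc25a20, the oxidation enzymes Echs1 and Eci2 and the lipid droplet protein Plin5, and only Pnpla2 and Echs1 kept their call without each library. Glycolysis and glycogen genes gave 1 higher (Pgam1) and 4 lower (among them Hk2, Pygb and Ppp1r3c) of 29, with a median of 0.01 that was below 0 under 4 other scalings (-0.221 to -0.00357). The shares were 3.45% and 13.8%, against 4.52% and 3.39% of all genes. Hk2 was at 40.5, 37.3, 40.7, 43.8 and 33.9 FPKM in Naïve libraries and at 14.6, 17.6, 16.8 and 24 FPKM in Arrest libraries (log2 fold change -1.08 ± 0.14, adjusted p = 0.0024). Ppp1r3c was at 53.8, 57.6, 61.9, 52.5 and 53.3 FPKM in Naïve libraries and at 32.3, 39.8, 27.7 and 32.5 FPKM in Arrest libraries (log2 fold change -0.75 ± 0.11, adjusted p = 0.0043). Both Hk2, the insulin-regulated hexokinase, and Ppp1r3c, which targets a phosphatase to glycogen, had all Arrest libraries below all Naïve ones. Among regulators of mitochondrial genes the nuclear receptors Esrrg and Ppara were lower and 0 of 16 higher (12.5% lower against 3.39% of all genes). Esrrg was at 7.16, 5.62, 6.14, 6.05 and 6.96 FPKM in Naïve libraries and at 2.83, 4.19, 3.6 and 2.96 FPKM in Arrest libraries (log2 fold change -0.76 ± 0.14, adjusted p = 0.0093). Ppara was no longer called in any of the 9 fits that left out a library (adjusted p 0.0508 to 0.0977), and Ppargc1a stood at -0.44 ± 0.18, not past the test. Branched-chain amino acid catabolism gave 0 higher and 3 lower (Dbt, Ppm1k and Mccc1) of 17, and the citric acid cycle 1 higher (Sdhb) and 2 lower (Ogdh and Pdk1) of 26. The shares lower were 17.65% and 7.69%, against 3.39% of all genes, and 3.85% of the cycle genes were higher, against 4.52%.

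**Figure D2:**
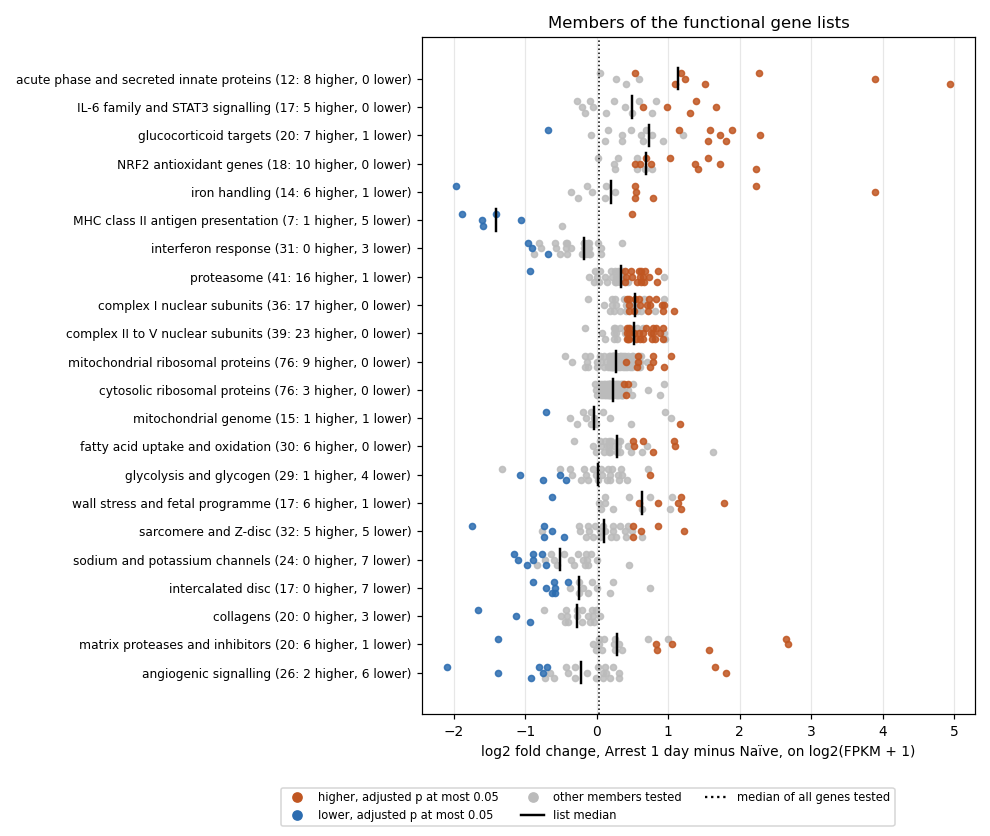
Log2 fold change, Arrest minus Naïve on log2(FPKM + 1), of every tested member of 22 functional lists, with called genes in orange (higher) and blue (lower), other members in grey, a black bar at each list median and a dotted line at the median of all genes, 0.03. The acute phase list has the highest median of those drawn, 1.13, and MHC class II the lowest, -1.41.

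Of 17 genes of wall stress and the fetal programme 6 were higher (Nppa, Nppb, Csrp3, Fhl1, Uchl1 and Hspb7) and 1 lower (Xirp2), against 4.52% and 3.39% of all genes, with a median of 0.63, and the other 10 did not pass the test. Nppb was at 376, 278, 311, 534 and 192 FPKM in Naïve libraries and at 1881, 2288, 586 and 576 FPKM in Arrest libraries (log2 fold change 1.78 ± 0.44, adjusted p = 0.035). Nppb, the natriuretic peptide released by stretched ventricle, was raised most in Arrest replicates 1 and 2, and replicates 3 and 4 stood just above the highest Naïve library. Nppb lost its call without Naïve replicate 1, 2, 3 or 5 or Arrest replicate 1 or 2 (adjusted p 0.0611 to 0.107). Fhl1 was at 46.8, 37.6, 41.2, 33.5 and 42.5 FPKM in Naïve libraries and at 126, 86.7, 83.9 and 78.5 FPKM in Arrest libraries (log2 fold change 1.18 ± 0.15, adjusted p = 0.0022). Csrp3 was at 412, 394, 427, 407 and 457 FPKM in Naïve libraries and at 844, 806, 723 and 685 FPKM in Arrest libraries (log2 fold change 0.86 ± 0.09, adjusted p = 0.0012). Fhl1 and Csrp3 encode LIM proteins of the sarcomere that take part in stretch sensing, and both were called without any single library. The fetal myosin Myh7 did not pass the test (log2 fold change 0.22 ± 0.17, adjusted p = 0.47).

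Of 24 sodium and potassium channel genes 7 were lower and 0 higher (median -0.51), and of 17 intercalated disc genes 7 were lower and 0 higher (median -0.26), against 3.39% of all genes lower. Abcc9 was at 37.6, 35.3, 32.5, 26.3 and 35.2 FPKM in Naïve libraries and at 12, 14.5, 14 and 17.3 FPKM in Arrest libraries (log2 fold change -1.16 ± 0.13, adjusted p = 0.0015). Abcc9 encodes the regulatory subunit of the ATP-sensitive potassium channel and is also a pericyte marker. Kcnj3 was at 12.8, 12.2, 13.2, 9.49 and 11 FPKM in Naïve libraries and at 4.67, 5.15, 5.13 and 9.03 FPKM in Arrest libraries (log2 fold change -0.89 ± 0.18, adjusted p = 0.015). Gja1 was at 29.1, 31.6, 32.3, 32.8 and 33.6 FPKM in Naïve libraries and at 12.7, 17.2, 12.8 and 27.2 FPKM in Arrest libraries (log2 fold change -0.89 ± 0.19, adjusted p = 0.021). For Kcnj3, a subunit of the acetylcholine-gated channel, and Gja1, connexin 43, Arrest replicate 4 lay close under the Naïve libraries and the other 3 well below. Kcnj3 lost its call without Arrest replicate 1 or 3 (adjusted p 0.0532 to 0.0549). Gja1 lost its call without Arrest replicate 1, 2 or 3 (adjusted p 0.0528 to 0.0717). The other lower channel genes included Scn4b, Kcnd2, Kcnip2 and Kcnv2. Ctnna3, an adhesion protein of the disc, and the desmosome gene Dsp kept their call without each library. Ctnna3 was at 3.2, 3.13, 2.79, 3.57 and 3.54 FPKM in Naïve libraries and at 1.69, 1.4, 1.46 and 1.81 FPKM in Arrest libraries (log2 fold change -0.71 ± 0.13, adjusted p = 0.0098).

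Calcium handling genes gave 1 higher (S100a1) and 3 lower (Ryr2, Slc8a1 and Camk2d) of 21 (median -0.26). The shares were 4.76% and 14.3%, against 4.52% and 3.39% of all genes. Ryr2 was at 42.2, 43.8, 43, 39.3 and 43.5 FPKM in Naïve libraries and at 25.2, 30.5, 25.4 and 27.3 FPKM in Arrest libraries (log2 fold change -0.63 ± 0.09, adjusted p = 0.004). Ryr2, the calcium release channel, is among the longest transcripts, and its fold change was -0.37 with the length trend removed (adjusted p = 0.036). Sarcomere and Z-disc genes gave 5 higher (Myl2, Tnnc1, Myoz2, Csrp3 and Myot) and 5 lower (Mybpc3, Ttn, Nebl, Lmod3 and Cmya5) of 32, or 15.6% each way against 4.52% and 3.39% of all genes. Lmod3 was at 32.9, 38.7, 38, 32 and 29.8 FPKM in Naïve libraries and at 4.96, 11.6, 7.23 and 18.1 FPKM in Arrest libraries (log2 fold change -1.75 ± 0.28, adjusted p = 0.0056). Lmod3, which nucleates actin filaments, had its highest Arrest value in replicate 4, below the lowest Naïve library, and Myh6, the main adult myosin, stood at -0.12 ± 0.13, not past the test.

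Matrix genes divided by function. Proteases and their inhibitors gave 6 higher (Mmp3, Mmp14, Timp1, Timp4, Adamts4 and Adamts15) and 1 lower (Mmp15) of 20 tested, or 30% and 5% against 4.52% and 3.39% of all genes. Mmp3 was at 5.32, 1.5, 3.13, 0.776 and 5.28 FPKM in Naïve libraries and at 23.4, 16.1, 28.9 and 24.9 FPKM in Arrest libraries (log2 fold change 2.67 ± 0.37, adjusted p = 0.003). Timp1 was at 7.7, 0.993, 1.8, 2.24 and 2.18 FPKM in Naïve libraries and at 26, 10.6, 21.2 and 31.3 FPKM in Arrest libraries (log2 fold change 2.65 ± 0.41, adjusted p = 0.0047). Mmp3, stromelysin, and Timp1, an inhibitor of metalloproteases, separated the groups, though Naïve replicate 1 was at 7.70 FPKM for Timp1 against 0.993 to 2.24 FPKM in the other Naïve libraries. Mmp15 was at 19.6, 22.3, 19.5, 17.4 and 16.2 FPKM in Naïve libraries and at 5.33, 8.52, 4.78 and 8.64 FPKM in Arrest libraries (log2 fold change -1.39 ± 0.18, adjusted p = 0.0023). Collagens gave 0 higher and 3 lower (Col6a3, Col14a1 and Col15a1) of 20, or 15% lower against 3.39% of all genes. Col15a1 was at 20.9, 22.7, 17, 12.5 and 19.2 FPKM in Naïve libraries and at 3.56, 4.7, 2.84 and 12.3 FPKM in Arrest libraries (log2 fold change -1.66 ± 0.32, adjusted p = 0.013). The fibrillar collagens Col1a1 (-0.04 ± 0.23), Col1a2 (-0.13 ± 0.22) and Col3a1 (-0.74 ± 0.31) did not pass the test. Other matrix genes gave 4 higher (Lox, Eln, Thbs2 and Dcn) and 4 lower (Lum, Lama4, Lamb1 and Hspg2) of 27, or 14.8% each way against 4.52% and 3.39% of all genes. Lox was at 2.74, 0.883, 1.37, 3.19 and 1.74 FPKM in Naïve libraries and at 13.2, 6.67, 12.6 and 4.31 FPKM in Arrest libraries (log2 fold change 1.72 ± 0.33, adjusted p = 0.012). Eln was at 6.1, 7.82, 7.26, 8.58 and 4.76 FPKM in Naïve libraries and at 18.6, 13, 19.7 and 12.5 FPKM in Arrest libraries (log2 fold change 1.10 ± 0.19, adjusted p = 0.0076). Lox crosslinks elastin, and both genes were called without any single library.

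Angiogenic signalling genes gave 2 higher (Pgf and Angptl4) and 6 lower of 26 (7.69% and 23.1%, against 4.52% and 3.39% of all genes, median -0.22). The 6 were apelin (Apln), its receptor Aplnr, the VEGF receptor Kdr, the coreceptors Nrp1 and Nrp2, and Unc5b. Apln was at 9.5, 6.1, 6.6, 8.66 and 4.04 FPKM in Naïve libraries and at 0.897, 0.534, 0.442 and 1.55 FPKM in Arrest libraries (log2 fold change -2.09 ± 0.24, adjusted p = 0.0015). Kdr was at 23.3, 25.8, 24.4, 21.6 and 26.3 FPKM in Naïve libraries and at 15, 15.8, 9.51 and 10.1 FPKM in Arrest libraries (log2 fold change -0.92 ± 0.16, adjusted p = 0.0074). Pgf was at 1.01, 1.15, 2.65, 0.76 and 0.871 FPKM in Naïve libraries and at 5.13, 5.7, 9.36 and 4.41 FPKM in Arrest libraries (log2 fold change 1.65 ± 0.25, adjusted p = 0.0044). The groups were apart for all 3 genes. Aplnr was at 8.85, 10.9, 8.87, 15.7 and 11.8 FPKM in Naïve libraries and at 3.4, 3.78, 1.46 and 7.58 FPKM in Arrest libraries (log2 fold change -1.38 ± 0.31, adjusted p = 0.023). Aplnr lost its call without Arrest replicate 1, 2 or 3 (adjusted p 0.0529 to 0.0675). Vegfa stood at -0.31 ± 0.14, not past the test.

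Markers of the heart's own cell types were called in both directions, where 7.9% of all genes were called. Of 18 endothelial markers 1 was higher (Ly6c1) and 2 were lower (Kdr and Cdh5). Ly6c1 was at 75.6, 88.8, 98.6, 76.9 and 83.2 FPKM in Naïve libraries and at 232, 208, 339.8 and 176 FPKM in Arrest libraries (log2 fold change 1.45 ± 0.17, adjusted p = 0.0017). The endothelial adhesion gene Pecam1 stood at 0.43 ± 0.21 and Tie1 at 0.08 ± 0.15, neither past the test. Of 16 fibroblast markers 3 were higher (Dcn, Gsn and Dpep1) and 1 lower (Lum), and Pdgfra stood at 0.25 ± 0.13. Pericytes had 1 lower of 10 (Abcc9), smooth muscle 1 lower of 11 (Itga8), and ventricular cardiomyocytes 1 higher (Myl2) and 2 lower (Ryr2 and Tbx20) of 15. The 9 markers of epicardium and mesothelium held 0 called with limma, and voom called 0. With limma 1 of the 9 had an unadjusted p no higher than 0.05, as had 3161 of the 13288 genes tested. The summed level of these markers was 16.3 to 229 FPKM in Arrest and 18.5 to 102 FPKM in Naïve libraries. This showed how much their share varied from heart to heart.

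Resident macrophage genes moved in both directions, with 2 higher (Cd163 and Lyve1) and 2 lower (Retnla and Igf1) of 17, or 11.8% each way against 4.52% and 3.39% of all genes. Retnla was at 21, 29.6, 39.1, 27 and 17 FPKM in Naïve libraries and at 5.22, 4.75, 3.49 and 12.2 FPKM in Arrest libraries (log2 fold change -1.98 ± 0.31, adjusted p = 0.0053). Cd163 was at 3.38, 4.06, 3.46, 3.76 and 4.42 FPKM in Naïve libraries and at 11.7, 11.2, 10.5 and 6.27 FPKM in Arrest libraries (log2 fold change 1.15 ± 0.17, adjusted p = 0.0043). Retnla, a secreted resistin-like protein of resident macrophages, and Cd163, the haemoglobin scavenger receptor, had groups that did not overlap, and each was called without any single library. Cx3cr1 was at 2.98, 1.43, 1.3, 4.65 and 3.93 FPKM in Naïve libraries and at 0.779, 0.287, 0.155 and 0.955 FPKM in Arrest libraries (log2 fold change -1.26 ± 0.30, adjusted p = 0.029). Cx3cr1, the fractalkine receptor, was the only called gene among 17 general macrophage and leukocyte markers (5.88% lower against 3.39% of all genes). Cx3cr1 lost its call without Naïve replicate 1 or 5 or Arrest replicate 1, 2 or 3 (adjusted p 0.0638 to 0.0988). The pan-leukocyte gene Ptprc stood at -0.24 ± 0.17 and the macrophage genes Csf1r at -0.21 ± 0.19 and Cd68 at 0.69 ± 0.19, none past the test, and the summed level of that list was 526 to 851 FPKM in Naïve and 551 to 827 FPKM in Arrest libraries.

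Neutrophil and monocyte genes were low. Of 20 neutrophil markers 8 were tested and 4 were higher (S100a8, Clec4d, Retnlg and Hdc), or 50% against 4.52% of all genes. Ly6g, Elane and Mpo were listed at 0 in all 9 libraries. S100a8 was at 0.645, 1.54, 0, 0 and 0.643 FPKM in Naïve libraries and at 5.83, 2.42, 9.37 and 3.82 FPKM in Arrest libraries (log2 fold change 1.99 ± 0.36, adjusted p = 0.0092). Retnlg was listed at 0 in all Naïve libraries and at 2.96, 0.763, 2.74 and 0.596 FPKM in Arrest libraries. Retnlg passed the filter through its Arrest values alone, and all 9 tested genes listed at 0 in every Naïve library were called higher, so its call adds no support to the count. S100a8 and Clec4d also needed their Arrest values to pass, as fewer than 4 Naïve libraries reached 0.5 FPKM, so their calls lean on the filter. The summed level of all 20 was 34.0 to 69.6 FPKM in Naïve and 66.3 to 75.3 FPKM in Arrest libraries. Most of that sum came from G0s2, which was not called and averaged 44.1 FPKM in Naïve and 48.0 FPKM in Arrest libraries. The list median was 0.91 (0.77 with Retnlg at the value of 3 fragments). Of 10 tested monocyte genes 2 were higher, Msrb1 and Chil3, or 20% against 4.52% of all genes. Chil3 too passed the filter through its Arrest values alone. Msrb1 was at 61, 68.1, 73.9, 89.5 and 72.4 FPKM in Naïve libraries and at 223, 145, 267 and 139 FPKM in Arrest libraries (log2 fold change 1.35 ± 0.20, adjusted p = 0.0039). Msrb1, a methionine sulfoxide reductase, is expressed in many tissues, and its level here was far above that of the defining monocyte genes Ly6c2, Ccr2 and Plac8, which ranged from 0 to 1.32 FPKM.

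Lymphocyte transcripts were scarce. None of 14 T cell markers passed the filter (summed level 0 to 4.61 FPKM in Naïve and 0.688 to 1.98 FPKM in Arrest libraries). Of 4 tested B cell markers Ighm, the IgM heavy chain, was lower, or 25% against 3.39% of all genes. Ighm was at 8.74, 14, 5.25, 18.6 and 15 FPKM in Naïve libraries and at 2.15, 4.73, 1.81 and 2.22 FPKM in Arrest libraries (log2 fold change -1.79 ± 0.33, adjusted p = 0.011). The highest Arrest library, replicate 2, was below the lowest Naïve library. Red blood cell genes gave 1 lower (Hbb-bt) and 0 higher of 8 tested (12.5% lower against 3.39% of all genes, median -0.60). Their summed level was 1706 to 3965 FPKM in Naïve and 1572 to 1729 FPKM in Arrest libraries. The part of blood left in the tissue in the lower Ighm was not tested. Hbb-bt lost its call without Naïve replicate 2 or 3 or Arrest replicate 1, 2, 3 or 4 (adjusted p 0.0558 to 0.123). The 4 platelet genes tested held 0 called with limma, and voom called 0. With limma 2 of the 4 had an unadjusted p no higher than 0.05, as had 3161 of the 13288 genes tested.

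**Figure D3:**
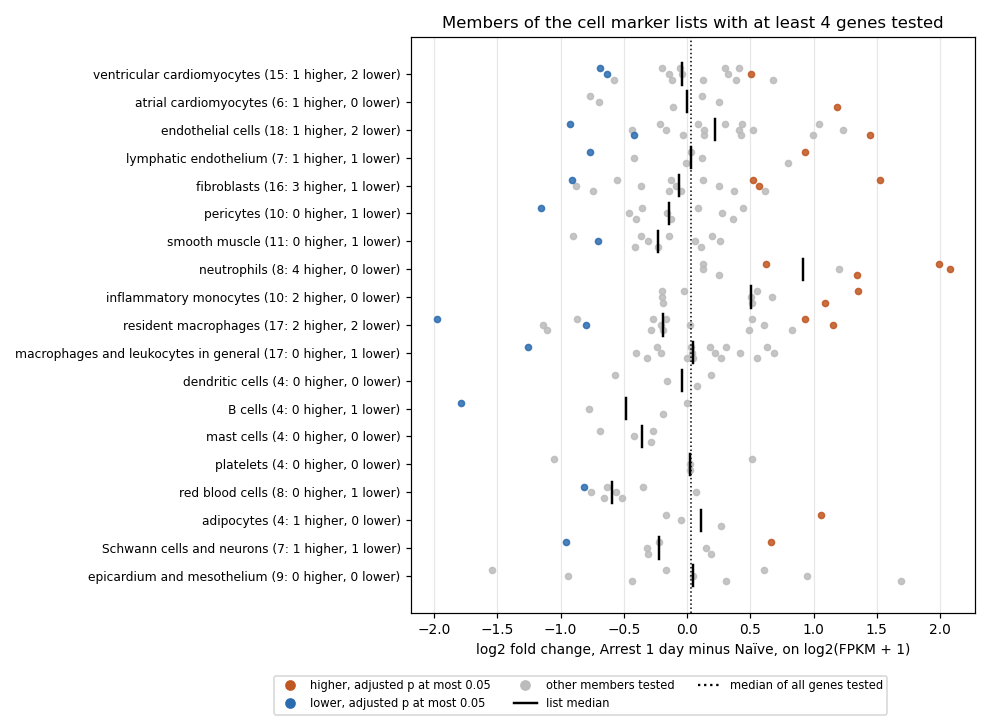
Log2 fold change of every tested member of 19 cell marker lists with at least 4 genes tested, on the same axis and in the same colours as the functional lists. Called genes lie on both sides of 0 in several lists. Neutrophil markers have the highest median, 0.91, and include members that passed the filter only with their Arrest values.

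Gene length went with the direction of the change. In each library the deviation of every gene from the mean of the 9 libraries was correlated with gene length over 11485 genes with a mean of at least 1 FPKM. Spearman's rho was 0.243, 0.165, 0.131, 0.058 and 0.235 in the Naïve libraries and -0.146, -0.186, -0.291 and -0.194 in the Arrest libraries. The groups did not overlap, and the means differed by -0.371 (0.166 ± 0.077 in Naïve, SD, n = 5, and -0.204 ± 0.062 in Arrest, SD, n = 4, exact two-sided permutation p = 0.0079, the smallest that 4 against 5 libraries allow). These points share the mean they are taken from, so opposite signs in the groups are partly built in, and genes within a library are not independent. The difference was -0.340 to -0.407 without each library in turn.

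Across the 11384 genes both expressed and tested, the fold change fell with length (Spearman's rho -0.33, and -0.35 over 10311 protein coding genes, as a description). Among the quartile with the shortest transcripts (up to 2373 bases) 282 genes (9.91%) were higher and 47 (1.65%) lower, with a mean fold change of 0.24. Among the quartile with the longest (at least 6441 bases) 48 (1.69%) were higher and 190 (6.68%) lower, with a mean of -0.10. The shortest decile had 118 higher and 12 lower genes, the longest 14 and 105. Removal of a smooth trend with length from each library left 361 of the 600 higher and 340 of the 450 lower genes called and added 28 and 62, for 389 (2.93%) and 402 (3.03%). Fold changes moved by a median of 0.084 and by at most 0.469. The largest changes kept their size, with Serpina3n at 4.78, Mt1 at 2.64, Apln at -2.18 and H2-Aa at -1.93 after removal. The part of RNA integrity or library preparation in this trend was not tested.

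**Figure D4:**
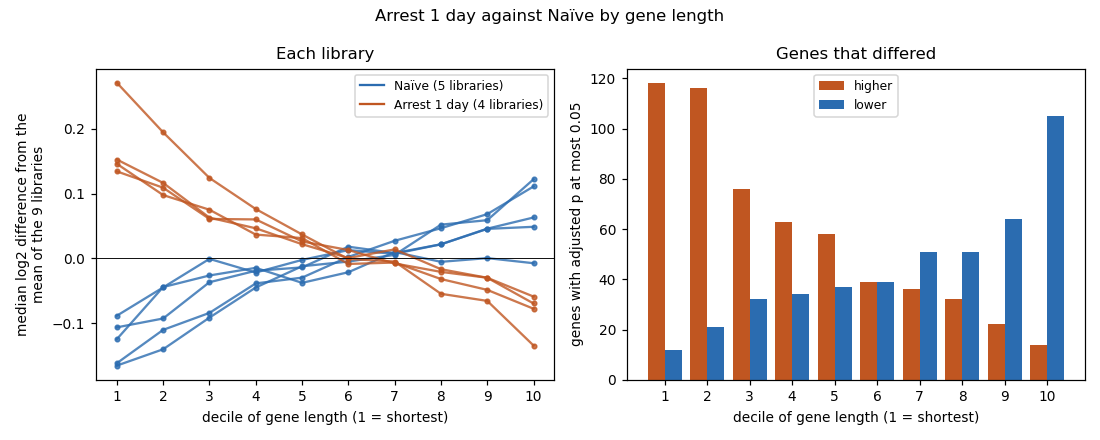
Left, median log2 difference of each library from the mean of the 9 libraries by decile of gene length, with 1 line per library (blue, Naïve; orange, Arrest). Right, the number of genes called higher (orange) and lower (blue) per decile. All 4 Arrest lines lie above all 5 Naïve lines in the shortest decile and below them in the longest, and higher genes go from 118 to 14 and lower genes from 12 to 105.

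Arrest replicate 4 was the Arrest library nearest to the Naïve mean for 314 of the 600 higher genes (52.3%) and for 244 of the 450 lower genes (54.2%), and replicate 3 was the nearest for 39 (6.50%) and 41 (9.11%). Replicate 4 also had the lowest mitochondrial share, 21.7%, and the highest endoplasmic reticulum chaperones. Hspa5 was at 117, 103, 127, 90.7 and 90.3 FPKM in Naïve libraries and at 80.1, 72.2, 68.2 and 247 FPKM in Arrest libraries (log2 fold change -0.07 ± 0.33, adjusted p = 0.92). Hspa5 encodes the chaperone BiP, and the list of 19 chaperones held 0 called genes with limma, while voom on whole fragments called 1. With limma 3 of the 19 had an unadjusted p no higher than 0.05, as had 3161 of the 13288 genes tested. Without Arrest replicate 4, 694 genes were higher and 457 lower.

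The levels at 1 day were set beside the other groups of the series, which share the Naïve libraries. Serpina3n averaged 6.05 FPKM in Naïve, 142 ± 42 FPKM (SD, n = 4) after 0.5 days of recovery from arrest, 165 ± 52 after 1 day, 39.4 ± 51 after 3 and 7.46 ± 3.9 after 7, and 54.2 ± 41 in Adr mice after 1 day. H2-Aa averaged 31.7 FPKM in Naïve and 13.7, 7.67, 17.6 and 24 FPKM at the 4 times after arrest, and Apln 6.98 FPKM in Naïve and 1.23, 0.857, 2.87 and 3.64 FPKM. Of the 78 called genes given in the text, all chosen for their change at 1 day, the Arrest mean FPKM was farthest from the Naïve mean at 1 day for 55 (among them the 8 genes drawn), at 0.5 days for 18 and at 3 days for 5. The 18 included Lcn2, at 43.1 FPKM at 0.5 days and 38.8 FPKM at 1 day, Mmp3 (30.4 and 23.3 FPKM), Lrg1 (55.9 and 47 FPKM) and Socs3 (14.4 and 10.3 FPKM). The difference between 0.5 and 1 day was not tested. A direct comparison of Arrest with Adr mice at 1 day, in a limma fit of all 37 libraries, called 0 of 16579 genes (lowest adjusted p = 0.0737, while 1093 had an unadjusted p no higher than 0.05). Of the genes above, Serpina3n differed by 1.78 ± 0.93 (adjusted p = 0.77) and H2-Aa by -1.39 ± 0.42 (adjusted p = 0.48) between Arrest and Adr on the log2 scale, neither past the threshold. Other genes lay closer. Timp1 averaged 22.3 FPKM in Arrest and 22.2 FPKM in Adr mice at 1 day (0.12 ± 0.75 in the same fit), and Mmp3 23.3 and 18 FPKM (0.43 ± 0.48). Apln, at 2.42 FPKM in Adr mice at 1 day, was below its Naïve mean there too (Arrest minus Adr -0.77 ± 0.43). The shared spread of this fit included Adr replicate 3 at 3 days, with 9.36% mitochondrial fragments against 25.2 to 30.9% in Naïve libraries. The lack of calls therefore does not show that Arrest and Adr were alike at 1 day.

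**Figure D5:**
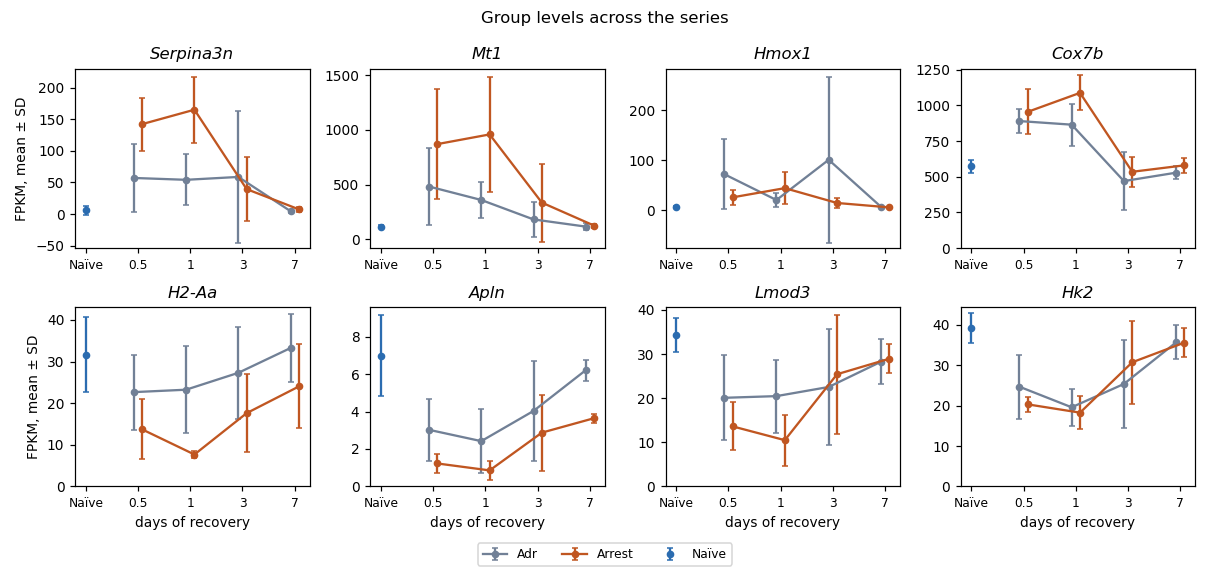
Mean FPKM ± SD of 8 genes in Naïve hearts (blue, n = 5) and after 0.5, 1, 3 and 7 days of recovery in Adr (grey) and Arrest (orange) hearts, n = 4 each, on linear axes. Arrest means of Serpina3n, Mt1 and Cox7b are above and those of H2-Aa, Apln, Lmod3 and Hk2 below the Naïve mean at 0.5 and 1 day.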

How the data were processed

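RNA was sequenced by Novogene from left ventricular tissue with the apex discarded and the blood flushed out, and libraries were grouped by the treatment labels. Reads were aligned with HISAT2 v2.0.5 by or for the authors, who tested with DESeq2. The genome build, annotation, counting tool and strand are not given in the sources used here. The authors deposited 1 table of FPKM values with gene lengths, in which FPKM times length was a whole number of fragments in 100% of values (tolerance 0.01), so depth per library was recovered. Values were converted to log2(FPKM + 1) and the 2 groups were fitted by limma (version 3.58.1, R 4.3.3) with empirical Bayes moderation that follows the mean level and no covariate, with the Benjamini-Hochberg method over 13288 genes and a threshold of 0.05. The fit was tested on simulated data. Length trends were taken out per library by local regression (span 0.5). Correlations with length were compared by an exact two-sided permutation test.

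The members and the 70 gene lists were chosen with earlier results of these data known. Genes are named as the 12 largest rises and 12 largest falls among called genes with groups that do not overlap and a mean of at least 1 FPKM in 1 group, leaving out Gm, Rik and Ensembl names, and as up to 4 called members and the first 3 members of each list, with a few others chosen after their values were seen (Nr3c1, Myh7, Myh6, Vegfa and members named beside a count). A few genes are not reported here. Of 104 genes given, 45 overlap another gene of the table, 37 on the other strand, so their values may be shared, as may those of gene copies with much sequence in common. Alternatives were the pseudocount (0.1), the filter, the scaling, the length trend, covariates, quality weights, voom on whole fragments, all 37 libraries, a replicate block and leaving out each library. Each library's depth (13.4 to 16.1 M) limits precision at low levels. Pairs of libraries were checked for copies, and none was found (lowest chi-square per gene 18.1). RefSeq promoter windows matched 57.5% of tested genes, too few for a comparison of motifs. Plots were made in Python 3.11.15 (matplotlib 3.10.9).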

Additional observations from a re-analysis of the deposited data

Results flagged for a closer look

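In 15 of 216 sets of library values examined (6.94%), 1 library lay far from the others of its group, measured as the share of the group's whole range taken by the gap to its nearest neighbour. Chance gives such a gap in about 1 of 20 sets. Arrest replicate 4 had 5 of them, and in the report its values for Fos and Hspa5 are set beside the group. Its gap took 0.941 of the range for Fos (1.55 FPKM against 36.7 to 43.7), 0.88 for Pnpla2, 0.875 for the chaperone Hspa5 (247 FPKM against 68.2 to 80.1), 0.875 for Per1, which was at 4.74 FPKM against 13.4 to 15.4, and 0.858 for Kcnj3. Arrest replicate 3 was low in Adrb1 (0.912) and Cd83 (0.893). Arrest replicate 1 had the fewest genes above 0 of its group (0.83), and Naïve replicate 4 had the fewest of its own (0.818) and the highest Socs3 (0.759). Naïve replicate 3 was high in Pnpla2 (0.812) and Pgf (0.726). Naïve replicate 2 was low in Cd68 (0.79) and high in Top2a (0.735) and Ifit3 (0.714). Arrest replicate 4 was also apart in its description number, 95 against 70 to 73 in the other Arrest libraries.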

How the results depend on the processing

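Of 103 tested genes given in the text, the 78 called kept their direction under every alternative but 1, while 9 of the other 25 (Col1a1, Col1a2, Fbxo32, Hspa5, Ifit3, Nfe2l2, Per1, Tie1 and Tsc22d3) changed sign under at least 1 other alternative without being called. Adding the description number as a covariate, whose values do not overlap between the groups, left 12 genes called (4 higher, 8 lower, 6 in lists) and none of the 78. It turned the sign of 19 of the 78 and of 12 of the 25, to -0.61 for Ahsg, 0.63 for Aplnr, -1 for Bnip3, 0.41 for Bst2, -0.18 for Cd163, -1.96 for Cdkn1a, -0.91 for Clec4d, 0.49 for Col15a1, -0.13 for Cxcl1, -1.56 for Gclm, 0.50 for Gja1, -0.76 for Hmox1, -1.78 for Junb, 0.28 for Kcnj3, 0.12 for Lmod3, 0.32 for Lsmem1, -0.30 for Pnpla2, 0.65 for Retnla, 0.68 for Tfrc and, among the 25, -5.21 for Fos, which was then called (adjusted p = 0.0079). The cause was not tested. Counts moved by over 1.5 times without a filter on low values, where 24116 genes were tested (631 called, 374 higher, 257 lower, 161 in lists), with scaling by the nuclear sum (319 higher, 1030 lower), with the length trend removed (389 higher) and with quality weights (1677, 967 higher and 710 lower). Without each library in turn they ranged from 380 to 1233 (225 to 712 higher, 155 to 521 lower, 106 to 293 in lists). Without replicate 4 of both groups, chosen after seeing the data, 1509 were called (889 higher, 620 lower, 353 in lists). The other alternatives gave 957 to 1349. The difference in correlation with length stayed between -0.296 and -0.486.

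The replicate block, which drops Naïve replicate 5, gave 529 calls (358 higher, 171 lower, 164 in lists) and kept 64 of the 78 genes, against 696 calls (274 lower) for replicates 1 to 4 without it. The shared numbers do not pair the samples: same-numbered libraries correlated at 0.102, 0.0825, 0.0463 and 0.0063 in their deviations, and Arrest replicate 4 correlated best with Naïve replicate 3.

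Depth limits low genes, since a value of 0 allows up to 3 fragments in a library, and 4 genes among the higher ones averaged under 1 FPKM in both groups.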

Other observations

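Several gene groups outside the comparisons above also held called genes. Of 22 atrophy and autophagy genes 7 were higher and 0 lower (31.8% higher against 4.52% of all genes, median 0.19). Among them was Bnip3, a mitophagy receptor that is also a hypoxia target. Bnip3 was at 45.1, 58.8, 55, 44.2 and 52 FPKM in Naïve libraries and at 196, 174, 215 and 66.5 FPKM in Arrest libraries (log2 fold change 1.53 ± 0.29, adjusted p = 0.012). Fbxo31, an F-box ubiquitin ligase subunit, was called without any single library as well. Fbxo31 was at 13, 14.2, 20.6, 14.3 and 12.1 FPKM in Naïve libraries and at 31.3, 29.8, 38.3 and 22.8 FPKM in Arrest libraries (log2 fold change 0.99 ± 0.18, adjusted p = 0.0087). The atrophy ligases Fbxo32 (-0.15 ± 0.25) and Trim63 (-0.26 ± 0.23) did not pass the test. Among the other 18 hypoxia genes tested Pdk1 and Egln3 were lower and none was higher, and the hypoxia list had a median of 0.05 that was -0.16 under scaling by the nuclear sum and -0.13 under quantile normalization. Of the whole hypoxia list 5.26% were higher and 10.5% lower, against 4.52% and 3.39% of all genes.

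Cyclin D2 (Ccnd2) fell, 1 of 22 proliferation genes to do so (4.5%, near the 3.39% of all genes), and 1 was higher. Ccnd2 was at 13.8, 11, 10.9, 13.5 and 11.2 FPKM in Naïve libraries and at 3.46, 5.43, 3.55 and 5.48 FPKM in Arrest libraries (log2 fold change -1.27 ± 0.16, adjusted p = 0.002). Mki67 and Top2a, markers of dividing cells, had all Arrest libraries below all Naïve ones but did not pass the test (adjusted p = 0.066 and 0.065). Ninj1, which executes membrane rupture in lytic cell death, was the only called gene of the 13 tested in its list (7.69%, near the 7.9% called of all genes). Ninj1 was at 29.2, 33, 45.5, 45.8 and 26.5 FPKM in Naïve libraries and at 77.1, 81.6, 113 and 64.2 FPKM in Arrest libraries (log2 fold change 1.20 ± 0.20, adjusted p = 0.0072). Dbh, which makes noradrenaline from dopamine in sympathetic nerves, was lower and called without any single library. Of the 7 Schwann cell and neuron genes tested it was the only one called lower, while the neuronal gene Stmn2 was called higher. The shares were 14.3% each way, against 4.52% higher and 3.39% lower of all genes. Dbh was at 1.35, 1.36, 2.06, 2.02 and 1.85 FPKM in Naïve libraries and at 0.284, 0.192, 0.374 and 0.81 FPKM in Arrest libraries (log2 fold change -0.96 ± 0.18, adjusted p = 0.011). Of 25 adrenergic and cAMP signalling genes 3 were lower (Adcy5, Prkar1a and Pde4a) and 0 higher, or 12% lower against 3.39% of all genes. The receptor Adrb1 stood at -0.31 ± 0.24, not past the test. Of 636 processed pseudogenes tested 31 were higher (4.87%, near the 4.52% of all genes) and 4 lower (0.63% against 3.39%). Reads of their parent genes may be counted for them.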
